A study of Mus musculus with 4 samples.

Results

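A stretch of 21.2 Mb on mouse chromosome 14, chr14:44988432-66176004 of build mm10, was examined for chromatin accessibility in wild-type (WT) and CTCF-K20R embryoid bodies. Overlapping peaks of 4 libraries (by 1 bp or more) were joined, and the members are the 782 joined regions that lie inside the stretch, of 80380 in all and beside 2089 elsewhere on chromosome 14. The stretch was selected on measured values of these same 4 libraries, namely lower summit pileups in K20R at the regions that have a peak in every library. The lower pileups are therefore a description of how the stretch was selected, and no test between the genotypes was made on any of the values given here.

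CTCF is a zinc-finger protein that binds DNA at a long, well-defined motif, stops cohesin from extruding chromatin loops further and thereby helps to set which enhancers meet which promoters. ATAC-seq uses a transposase that inserts sequencing adapters where DNA is not wrapped in nucleosomes, so that reads pile up at promoters, enhancers and CTCF sites. The stretch holds *Bmp4*, *Gata4* and *Sox7*, which act in mesoderm, endoderm and heart formation, *Otx2*, which acts in the anterior embryo, and the cardiac myosin genes *Myh6* and *Myh7*.

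The libraries came from embryoid bodies on day 4 of differentiation, made by hanging drops from the mouse embryonic stem cell line E14Tg2A in serum without LIF, and there were 2 WT and 2 K20R libraries. In K20R cells, lysine 20 of CTCF was changed to arginine with CRISPR/Cas9 and colonies were picked after drug selection, and the number of clones behind the libraries is not given in the sources used here. The stem cells were kept on mitomycin C-treated feeder fibroblasts. Promoter peaks were present in all 4 lists for 6 of 6 mesoderm and primitive streak genes, 5 of 5 pluripotency genes, 3 of 3 endoderm genes and 3 of 3 neuroectoderm genes, and for 3 or 4 of 5 feeder fibroblast genes in each list, *Col3a1* being without one.

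The lists held 59783 and 66703 peaks in WT against 51823 and 55832 in K20R. The summit pileup, the number of extended reads over the highest point of a peak, was recovered for every peak from the deposited fold and p. The 38527 regions with a peak in all 4 lists are called common regions here. Their median summit pileup was 38 and 56 reads for WT replicates 1 and 2 and 39 and 58 reads for the K20R replicates. Libraries with the same replicate number were thus close in this median, which is not a measure of depth alone. All levels below are log2 values minus the library's own median over these common regions, and differences are K20R minus WT means of 2 libraries each.

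Selected members are shown by their mm10 sequence (RefSeq GRCm38, forward strand, 101 bases around the strongest summit, none overlapping an annotated exon). The first 3 are the strongest common members outside promoters with a match to the CTCF consensus in that window, and capitals mark the match. The third of them is the last member of the stretch. The other 3 are the strongest member with a peak in WT lists only, such a member in an intron of *Gata4*, and the *Myh6* intron region that stood higher in K20R, with capitals on the 21 bases around the summit.
CTCF member near Olfr750, chr14:51064950-51065050: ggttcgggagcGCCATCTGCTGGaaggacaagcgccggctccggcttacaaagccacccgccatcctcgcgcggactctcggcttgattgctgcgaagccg
CTCF member in a Chrna2 intron, chr14:66147661-66147761: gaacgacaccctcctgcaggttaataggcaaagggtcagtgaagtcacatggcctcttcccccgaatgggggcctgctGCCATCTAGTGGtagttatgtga
CTCF member in a Ptk2b intron, chr14:66175787-66175887: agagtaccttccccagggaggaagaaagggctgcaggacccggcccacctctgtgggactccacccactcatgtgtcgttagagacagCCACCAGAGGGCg
WT-restricted member near Cdkn3, chr14:46662066-46662166: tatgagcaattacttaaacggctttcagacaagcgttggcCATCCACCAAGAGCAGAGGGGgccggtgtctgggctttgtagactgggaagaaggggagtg
WT-restricted member in a Gata4 intron, chr14:63264472-63264572: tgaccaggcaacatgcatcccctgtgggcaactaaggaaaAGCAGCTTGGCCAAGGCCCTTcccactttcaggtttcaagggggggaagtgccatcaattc
Myh6 intron member, chr14:54956738-54956838: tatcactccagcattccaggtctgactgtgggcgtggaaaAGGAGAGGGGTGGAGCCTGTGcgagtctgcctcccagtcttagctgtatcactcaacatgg

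The printed members cover the kinds of behaviour found. The CTCF member near *Olfr750* had summit pileups of 92 and 112 reads in WT against 45 and 82 in K20R. In the *Chrna2* intron they were 42 and 56 in WT against 30 and 39 in K20R. In the *Ptk2b* intron they were 48 and 54 in WT against 19 and 32 in K20R. All 3 were lower in K20R at both replicate numbers, with differences in level of -0.78, -0.55 and -1.09. The member labelled by *Cdkn3* had 70 and 108 reads in WT and no listed peak in either K20R library. The TSS of *Cdkn3*, which encodes a phosphatase of cell-cycle kinases, was the nearest to it but lay 98425 bp away. The *Gata4* intron member had 26 and 22 reads in WT and no listed peak in K20R. The *Myh6* intron member had 13 and 15 reads in WT against 26 and 31 in K20R.

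Fewer peaks were listed in the stretch in K20R. The WT lists held 647 and 713 peaks there and the K20R lists 377 and 447, which are means of 680 ± 46.7 and 412 ± 49.5 (SD, n = 2) and a difference of -39.4%. On the rest of chromosome 14 the means were 1610.5 ± 176 and 1329.5 ± 53.0, a difference of -17.4%. Peaks carry running numbers with gaps, so some called peaks had been removed before deposit, and no source used here says how they were picked. Between the first and the last peak of the stretch the numbers span 1185 and 1323 called peaks in WT against 446 and 554 in K20R. The share of them that was deposited was 54.6% and 53.9% in WT against 84.5% and 80.7% in K20R, beside 51.7%, 50.5%, 58.6% and 60.8% over the 4 whole lists. The gap between genotypes in called peaks was thus wider than the gap in deposited ones. Peaks of the stretch had a median width of 648 and 688 bp in WT against 749 and 781 bp in K20R.

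Of the 782 members, 327 were common, 165 were WT-restricted (a peak in both WT lists and in neither K20R list), 6 were K20R-restricted and 284 had another pattern. Single libraries moved these counts, with 270 WT-restricted members without WT replicate 1 and 20 K20R-restricted members without K20R replicate 1. The WT-restricted share was 21.1%, beside 11.2% on the rest of chromosome 14 and 10.4% of all regions. The K20R-restricted share was 0.77%, beside 2.78% on the rest of the chromosome and 3.1% of all regions. A peak in 1 or both WT lists and in no K20R list was found at 321 members, and the reverse at 24. Over all 80380 regions these counts were 19831 and 8967, so the whole series leaned the same way, though less. Among the 91 members with peaks in 3 lists, 85 lacked a K20R peak and 6 a WT peak, beside 5315 and 3860 of 9175 such regions in the whole series. Since peaks were taken out before deposit, a member without a listed peak can have had a called one. At 92 of the 165 WT-restricted members no number was missing in either K20R list between the neighbouring peaks, so that none had been taken out there.

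WT-restricted members were mostly away from promoters, as in the whole series, where 277 of 8341 WT-restricted regions were promoters. A region was called promoter when its strongest summit lay within 1000 bp of the transcription start (TSS) of a protein-coding transcript, and 193 members (24.7%) were promoters, 51 exonic, 313 intronic and 225 intergenic. On the rest of chromosome 14 promoters were 15.3% of the regions. Of the promoter members, 172 (89.1%) were common and 2 were WT-restricted, those of *Slc7a7* and *Nuggc*. That is 1.04%, beside 2.19% of promoters on the rest of chromosome 14 and 1.80% of all promoters. Of the intronic members, 91 (29.1%) were WT-restricted, beside 14.3% of intronic regions on the rest of the chromosome. For intergenic members it was 63 (28.0%) beside 11.4%. The share of common promoters hardly differed from the 88.1% of the rest of the chromosome, while intergenic members were less often common, 23.6% against 41.0%. WT-restricted members were of modest strength in WT, with a median summit pileup of 19 reads and a median percentile of 33.0 by −log10 p within the WT lists, beside 18 reads and 31.5 for those elsewhere on the chromosome.

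**Figure D1:**
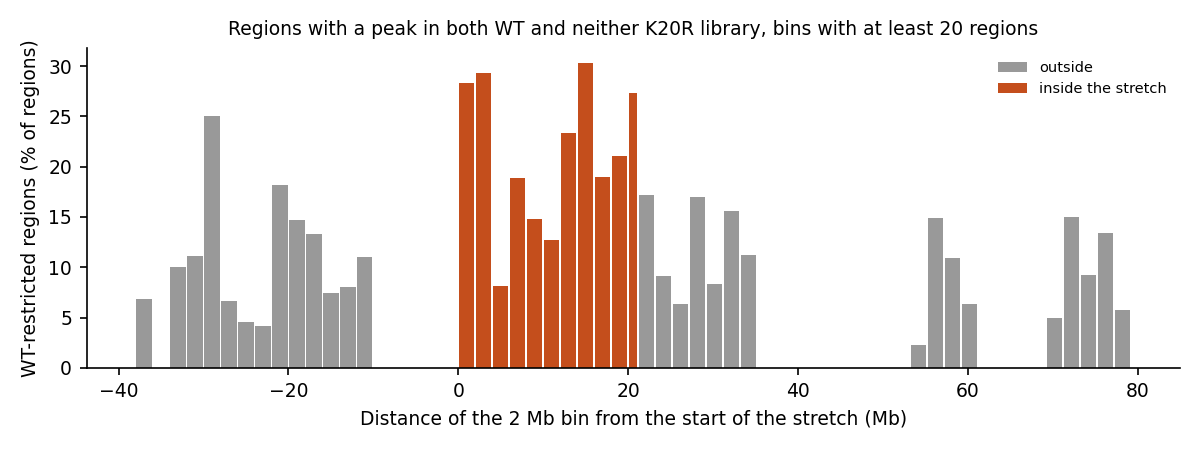
Share of merged regions that were WT-restricted in bins of 2 Mb along chromosome 14 (the last bin of the stretch is shorter and ends with it), against the distance of the bin from the start of the stretch, for bins with at least 20 regions. The 11 bins of the stretch lie between 8.11% and 30.3% with a median of 21.1%, and the 29 bins outside lie between 2.22% and 25.0% with a median of 10.0%, so the ranges overlap.

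In the plot of WT-restricted shares by bin, the stretch had more of the tall bars but no sharp limit. The bin at 4 to 6 Mb from the start, which holds many of the olfactory receptor genes, had the lowest share of the stretch at 8.11%, and the bin at 14 to 16 Mb had the highest at 30.3%.

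The level measures gave different pictures at the 327 common members. Summit pileup was lower in both K20R libraries than in both WT libraries at 293 of them (89.6%), beside 23.7% of all common regions. It was higher in both at 6 (1.83%), beside 35.6% of all common regions, and overlapped at 28. The mean difference was negative at 314 and positive at 13. Its median was -0.81, a K20R to WT ratio of 0.57, with quartiles of -1.01 and -0.59. The 4 libraries had median levels of 0.42 and 0.42 in WT against -0.38 and -0.43 in K20R, a gap on which the stretch was selected. On the rest of chromosome 14 the medians were -0.16, -0.11, -0.16 and -0.16, and the median difference was 0.04. These 327 members had to have a peak in K20R, which leaves out the members whose K20R signal was too low for one.

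The local background, which the peak caller took from the reads around each peak or from the whole library, was lower in the stretch as well. It lay lower in both K20R libraries at 280 common members (85.6%), beside 20.3% of all common regions, with a median difference of -0.78 and a ratio of 0.58. At 8.56% and 7.65% of the common members in WT the background was at about the lowest level of the list (less than 5% above the value that 1% of its peaks lie below), which the whole library sets, and at 46.5% and 30.6% in K20R. For the rest of chromosome 14 these shares were 21.8% and 20.1% in WT against 25.0% and 20.7% in K20R. The background of those members could not go lower, so the difference in reads around them is measured as a minimum. The lowest level itself was 2.76 and 2.71 in WT against 3.19 and 3.01 in K20R, and did not follow the median pileups of the libraries.

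The fold over local background differed much less. The median difference was -0.11, a ratio of 0.93, and 118 common members (36.1%) were lower in both K20R libraries, beside 21.8% of all common regions, while 32 were higher. This difference depended on single libraries, since it was -0.039 without WT replicate 1 and -0.20 without K20R replicate 1. Library medians were 0.29 and 0.22 in WT against 0.06 and 0.03 in K20R. For −log10 p, which grows with both fold and read number, the median difference of log2 levels was -0.78 and 257 members (78.6%) were lower, beside 23.8% of all common regions. Ranked by −log10 p within each list, common members had median percentiles of 76.9 and 77.6 in WT against 58.5 and 59.6 in K20R, and the median difference was -15.3 points. In the median over all common members, summit pileup and local background were thus lower by about the same factor. Reads of the peak itself can enter the background, so it is not independent of the pileup. It was also at about its lowest level at 46.5% and 30.6% of common members in K20R. The match of the medians did not hold for every class. Median differences in pileup and background were -0.80 and -0.84 at promoters, -0.86 and -0.75 in exons and -0.82 and -0.75 in introns. In intergenic sequence they were -0.72 and -0.39. There the median background levels in K20R, -0.86 and -1.16, were at the lowest level of the lists. The background could not go lower, so the intergenic value does not show that reads around the peaks fell less. The lists contain no measure of DNA content, so less accessible chromatin and fewer copies of the DNA cannot be told apart by them.

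**Figure D2:**
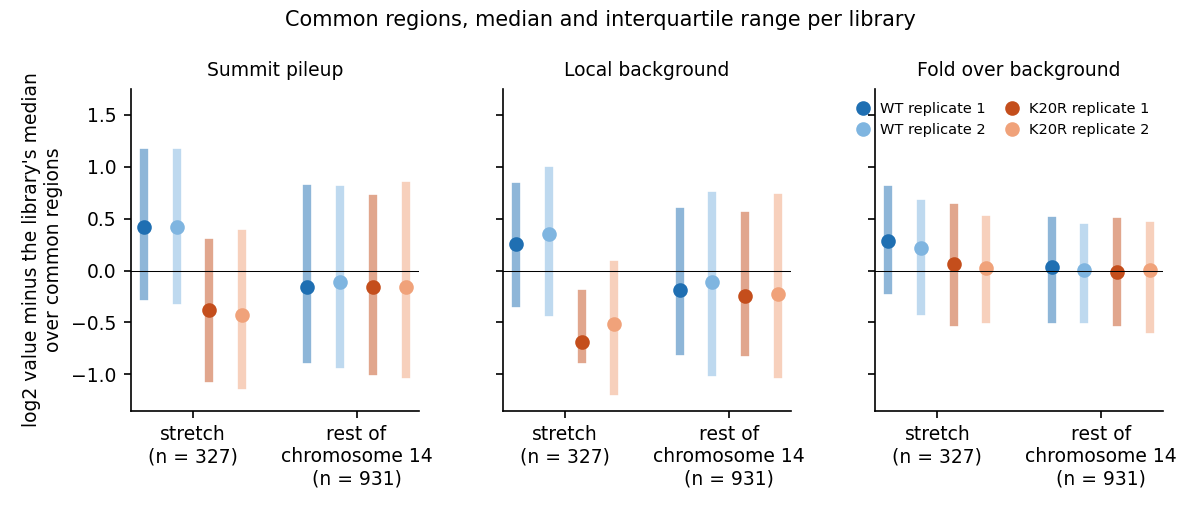
Median (point) and interquartile range (bar) of the level of summit pileup, local background and fold over background in each of the 4 libraries, at the 327 common regions of the stretch and the 931 on the rest of chromosome 14, in log2 units relative to the library's median over all common regions. WT and K20R points are apart in the stretch for pileup (0.42 and 0.42 against -0.38 and -0.43) and background, closer for fold, and lie together outside it.

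The difference in pileup was negative for every kind of region and, among common members, smaller for weak ones than for strong ones. Common promoter members had median levels of 0.93 and 0.93 in WT against 0.09 and 0.02 in K20R, while promoters on the rest of chromosome 14 had 0.92, 0.95, 0.98 and 1.07. The median difference was -0.80 over the 172 promoters and -0.81 over the 155 other common members. Of the promoters, 164 (95.3%) were lower in both K20R libraries and none was higher in both. Of all common promoters, 14.8% were lower and 40.4% higher. Of the other members, 129 (83.2%) were lower and 6 (3.87%) higher, beside 28.6% and 33.0% of all common regions outside promoters. The median was -0.86 in exons, -0.82 in introns and -0.72 in intergenic sequence. Divided by their mean percentile in WT into 3 groups of 109, the weakest common members had a median difference of -0.60, the middle ones -0.82 and the strongest -0.85. Weak members with a large loss of reads would lack a K20R peak and so be missing from these groups. The trend with strength can therefore not be told apart from this selection. Fold differences were -0.08, -0.16 and -0.11 in the same groups.

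Along the stretch the lower level was continuous. In its 11 bins of 2 Mb, the last of which ends with the stretch, the median pileup difference ran from -0.92 to -0.72, and between 76.5% and 100% of the 17 or more common members of a bin were lower in both K20R libraries. In 30 bins of chromosome 14 outside the stretch with at least 10 common regions, it ran from -0.28 to 0.27. Bins with fewer common regions did not all keep to that range. The 3 bins before the proximal end, with 8, 7 and 2 common regions, had medians of -0.69, -0.96 and -1.05, about as low as in the stretch, and 1 far bin with 3 common regions had -1.16. Others lay above the range, with medians of 0.81, 0.63, 0.55 and 0.37 in bins of 2, 1, 4 and 5 common regions. Median fold differences ran from -0.24 to -0.06 inside and from -0.20 to 0.12 in the 30 bins outside, and these ranges overlapped. The medians of 18 autosomes, chromosome 14 outside the stretch among them, lay between 0.04 and 0.11, and that of chromosome 8, left out of this range, was 0.34.

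**Figure D3:**
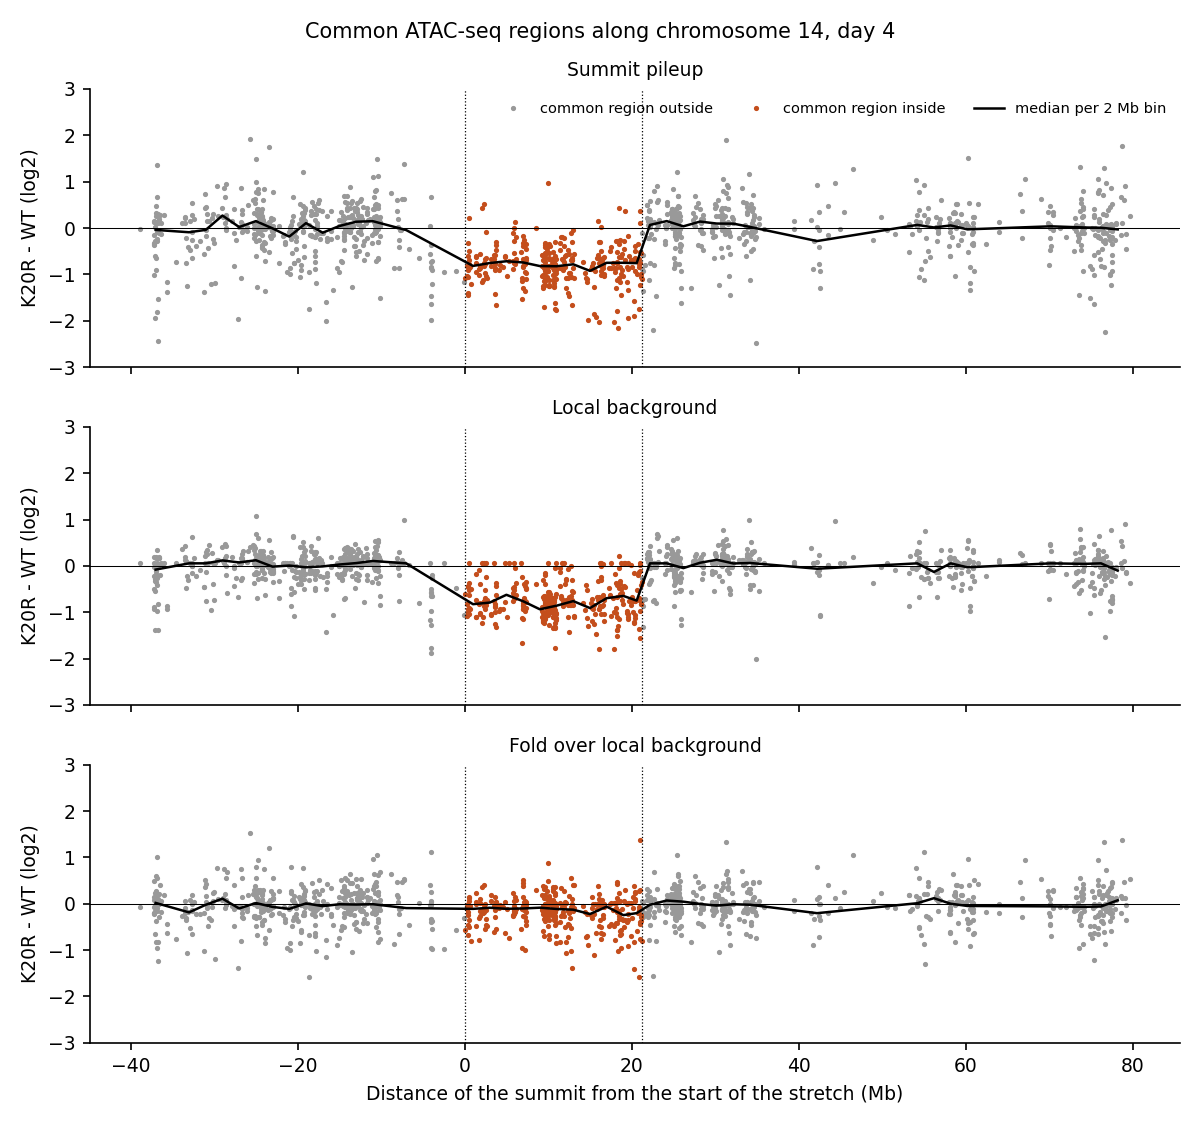
Difference between K20R and WT in log2 level at each common region of chromosome 14, against the distance of its summit from the start of the stretch in Mb, for summit pileup, local background and fold over local background, with black lines for medians of 2 Mb bins with at least 10 common regions and dotted lines at the ends of the stretch. Pileup and background medians are lower across the stretch (pileup bins from -0.92 to -0.72), are at about 0 in the drawn bins on both sides (from -0.28 to 0.27), and fold medians stay near 0 (from -0.24 to -0.06 in the stretch).

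The lower level ran on past both ends. The first member, chr14:44988432-44990024 in an exon of the prostaglandin receptor gene *Ptger2*, had 28 and 38 reads in WT against 12 and 21 in K20R, a difference of -1.08. The nearest common region before it, at the promoter of *Ptgdr*, another prostaglandin receptor gene, had 53 and 65 reads in WT against 25 and 29 in K20R, a difference of -1.17. The 5 common regions nearest the start on the outside, which reach back to chr14:41072307, all had both K20R levels lower, with differences of -1.21 to -0.90. The next 5 had a median of -1.46 with 4 lower, regions 11 to 20 a median of -0.51 with 5 of 10 lower, and regions 21 to 40 a median of 0.03. The proximal border thus lay in sequence with few peaks and was not sharp.

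At the distal end the level changed within a short interval. The last member, chr14:66175502-66176004 in an intron of *Ptk2b*, a tyrosine kinase gene, had 48 and 54 reads in WT against 19 and 32 in K20R, a difference of -1.09. The first common region beyond it, an inner promoter of *Ptk2b*, had 22 and 37 reads in WT against 24 and 31 in K20R, and its groups overlapped. The next 5, up to the promoter of the adrenergic receptor gene *Adra1a* at chr14:66635174-66637179, were lower in both K20R libraries, with differences from -1.36 to -0.59. From the next common region, at chr14:66784370, 83614 bp from the TSS of *Dpysl2*, the level was no longer lower. The *Dpysl2* promoter region itself had 91 and 158 reads in WT against 139 and 217 in K20R, a difference of 0.49. Of protein-coding genes, *Gpr137c* was the nearest to the proximal end with its TSS inside, and *Ptger2* lay outside by 237 bp, while *Chrna2* was nearest to the distal end inside and *Ptk2b* outside.

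**Figure D4:**
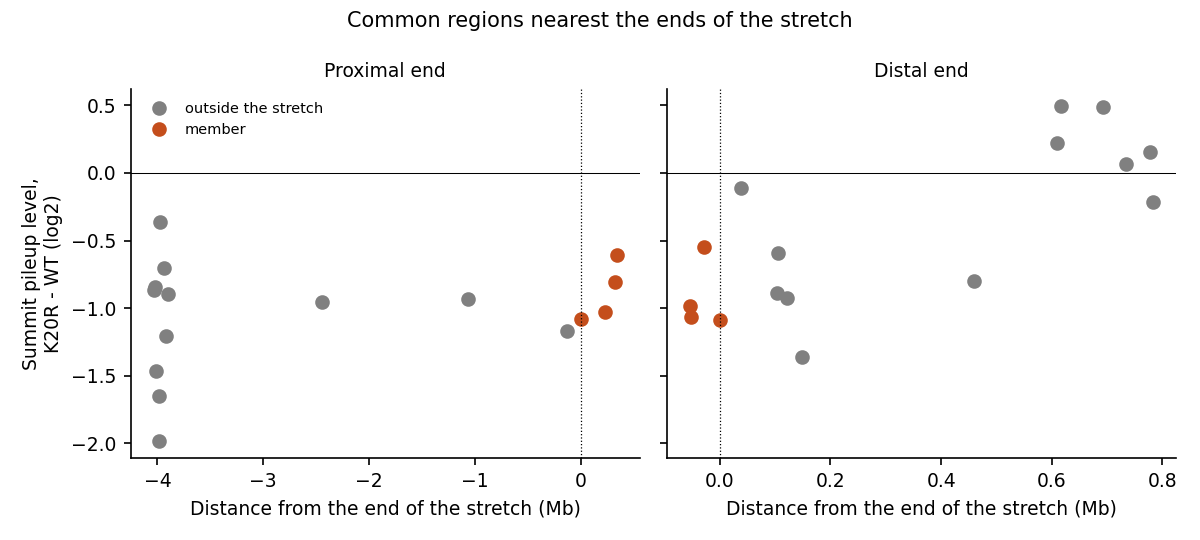
Difference between K20R and WT in log2 summit pileup level at the common regions nearest each end of the stretch, against the distance of the summit from that end in Mb, with members in orange and regions outside in grey. Grey points before the proximal end lie as low as the members (the nearest 5 between -1.21 and -0.90), and after the distal end the points move from between -1.36 and -0.11 to between -0.22 and 0.50 beyond 0.6 Mb.

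Of 316 protein-coding genes with a TSS in the stretch, 186 (58.9%) had a promoter peak in all 4 lists and 120 had none in any. No gene had promoter peaks in both libraries of one genotype and in neither of the other, since *Slc7a7* and *Nuggc*, each with a WT-restricted promoter region, had a K20R peak (both libraries for *Slc7a7*, replicate 2 for *Nuggc*) in another region within 1000 bp of a TSS. On the rest of chromosome 14, the share with promoter peaks in every list was 50.7% of 582. The strongest promoter peak of a gene was taken in each library on its own. It was not always the same region across libraries, nor always in a region classed promoter. It was lower in both K20R libraries for 176 of the 186 genes (94.6%), higher for none and overlapping for 10, with a median difference of -0.82 (SD 0.30 over genes) and a range from -1.90 to 0.10. On the rest of the chromosome 49 of 295 genes (16.6%) were lower and 113 higher. The 10 genes whose groups overlapped were *Ang*, *Atp12a*, *Ccnb1ip1*, *Klhl33*, *Micu2*, *Parp4*, *Rnase4*, *Scara3*, *Tdh* and *Zmym2*, named after their values were seen. Neighbouring genes that share a peak are not independent of each other.

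Genes of developmental signalling and transcription formed the first of 7 lists. All 13 of its 14 genes with promoter peaks in all lists were lower in both K20R libraries, with a median difference of -0.74 in pileup and 0.05 in fold, and *Nrl*, a photoreceptor transcription factor gene, had no promoter peak. Among ligands, *Bmp4*, of the TGF-β superfamily (chr14:46383520-46390669, minus strand), had 40 and 57 reads in WT against 27 and 32 in K20R, a difference of -0.74 in pileup beside 0.24 in fold, and its percentiles by −log10 p overlapped between the genotypes. *Fgf9*, a fibroblast growth factor gene, had 79 and 98 in WT against 38 and 53 in K20R, a difference of -1.02. In K20R replicate 2 its strongest peak lay in another region than in the other libraries. Within the region 494 bp from the TSS, the reads were 50 and 68 against 31 and 53 (-0.57, with a fold difference of 0.41). Within the other region, chr14:58074770-58076832, the difference was -1.09. That region was classed intronic, since its strongest summit lay 1316 bp from the nearest TSS. The pileup levels of both genes did not overlap between the genotypes. Of receptors, the Wnt receptor gene *Fzd3* had 59 and 83 reads in WT against 35 and 59 in K20R (-0.67, with a fold difference of 0.37), and *Tnfrsf19*, of the TNF receptor superfamily, had 61 and 95 against 39 and 56 (-0.75).

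Transcription factor genes had some of the largest differences of the list. *Gata4*, a zinc-finger factor of heart and endoderm (chr14:63198922-63271692, minus strand), had 86 and 101 reads in WT against 33 and 59 in K20R, a difference of -1.12 in pileup beside 0.13 in fold. *Sox7*, an SRY-related factor of endoderm and vessels, had 40 and 58 against 21 and 28 (-1.03). *Otx2*, a homeobox factor (chr14:48657677-48673819, minus strand), had 70 and 90 against 27 and 40, a difference of -1.32 in pileup beside 0.60 in fold. *Otx2* has several regions at its TSSs, and these differences compare different ones. The WT values came from chr14:48665971-48667187, which was classed intronic, since its strongest summit lay 1196 bp from the nearest TSS. The K20R values came from chr14:48673579-48675376, classed promoter. Within the first region the differences were -1.41 in pileup and -0.28 in fold. Within the second they were -0.59 and 0.14. The zinc-finger genes *Sall2* and *Zfhx2* had 75 and 105 against 44 and 74 (-0.68) and 72 and 126 against 40 and 95 (-0.67). Of the Hippo pathway, the kinase gene *Lats2* had 44 and 80 against 33 and 44 (-0.68) and the adaptor gene *Ajuba* 82 and 107 against 41 and 83 (-0.73). *Mmp14*, a membrane-bound matrix protease gene, had 54 and 48 against 22 and 40 (-0.82). *Xkr6*, of the XK family, had the smallest difference of the list, with 78 and 108 against 61 and 104 (-0.25).

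**Figure D5:**
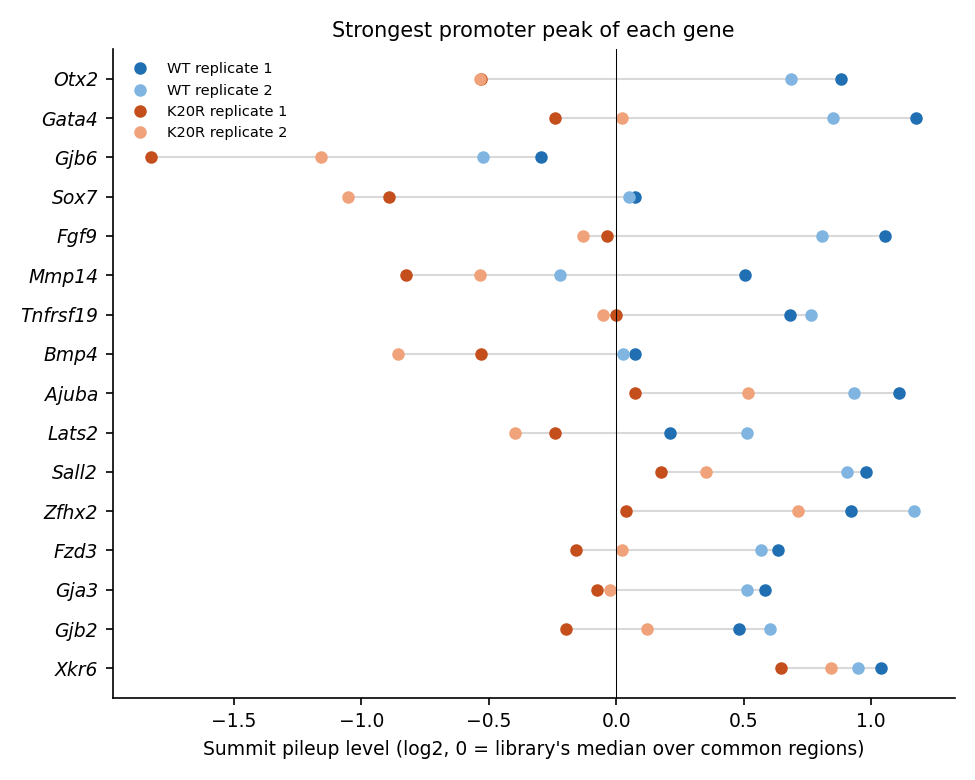
Level of the strongest promoter peak in each library for the 16 genes of the developmental and heart lists with a promoter peak in all 4 lists, in log2 summit pileup relative to the library's median over common regions, ordered by the difference between genotypes. Both K20R points lie to the left of both WT points for all 16 genes, with differences from -1.32 (Otx2) to -0.25 (Xkr6). For Otx2 and Fgf9 the strongest peak was not the same region in every library, and both WT values came from a region classed intronic.

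Heart muscle and gap junction genes made up the second list. The myosin heavy chain genes *Myh6* and *Myh7* each had a promoter peak only in WT replicate 2, of 14 reads, which leaves nothing to compare on day 4. The connexin genes *Gja3* (57 and 80 reads against 37 and 57, -0.60), *Gjb2* (53 and 85 against 34 and 63, -0.58) and *Gjb6* (31 and 39 against 11 and 26, -1.08) were lower in both K20R libraries. Fold differences were 0.03, 0.02 and -0.83 in the same order.

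Housekeeping groups showed the same lower level. Of 12 genes of DNA repair, replication and telomeres, all 12 were lower in both K20R libraries, with a median of -0.78, and examples were *Apex1*, an endonuclease of base excision repair (85 and 114 reads against 48 and 77, -0.74, a peak shared with *Osgep*), and *Parp2*, a poly(ADP-ribose) polymerase gene (100 and 121 against 66 and 57, -0.89). Of 8 cell division genes, 7 were lower, with a median of -0.80, among them *Cdkn3* (123 and 184 against 63 and 94, -1.01), and *Ccnb1ip1* overlapped (15 and 28 against 20 and 19, -0.12). In the proteasome and ubiquitin list, 11 of 13 genes had promoter peaks in all lists and 11 were lower, with a median of -0.83, for example *Psme1*, a proteasome activator subunit gene (74 and 100 against 35 and 48, -1.11). *Psmb11* had no promoter peak and *Psme2b* could not be placed in the annotation. Among 8 RNA and chromatin genes, 7 were lower, such as the RNA methyltransferase gene *Mettl3* (80 and 127 against 40 and 59, -1.10), and *Zmym2* overlapped (56 and 57 against 35 and 61, -0.33). In the list of apoptosis, autophagy and protease genes, all 7 with peaks in every list were lower, such as the survival gene *Bcl2l2* (64 and 116 against 35 and 52, -1.06), and *Blk* had a promoter peak of 10 reads in WT replicate 2 alone. Over the 7 lists, 62 of 68 genes had promoter peaks in all lists, of which 60 were lower and 2 overlapped, a share close to that of all promoters of the stretch. The lists describe what lies there and do not set their genes apart from the others.

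The 5 common promoters with the most negative differences were those of *Fbxo16*, a ubiquitin ligase subunit gene (81 and 123 reads against 21 and 36, -1.90), *Nynrin* (111 and 159 against 41 and 41, -1.74), *Rem2*, a small GTPase gene (56 and 76 against 16 and 27, -1.69), *Adcy4*, an adenylate cyclase gene (31 and 56 against 13 and 15, -1.62), and *Slc39a2*, a zinc transporter gene (77 and 127 against 28 and 45, -1.52). By fold they did not stand together, with differences from -0.83 at *Fbxo16* to -0.12 at *Slc39a2*. At the other end were *Scara3*, a scavenger receptor gene (23 and 25 against 18 and 39, 0.10), *Micu2*, a regulator of mitochondrial calcium uptake (50 and 104 against 55 and 95, -0.04), *Ccnb1ip1* (-0.12), *Parp4* (40 and 60 against 42 and 46, -0.20) and *Xkr6* (-0.25). *Scara3* had the largest positive fold difference of the common promoters, 1.37, from folds of 2.81 and 2.49 in WT to 4.54 and 9.91 in K20R. Its background was 7.53 and 9.44 in WT against 3.19 and 3.04 in K20R, while its pileups overlapped between the genotypes.

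Lower levels were also found around the developmental genes, where the counts below include the promoters of these genes and of their neighbours. Within 50000 bp of *Gata4* there were 16 members, of which 7 were common and all 7 lower in both K20R libraries, with a median difference of -0.76 and a range from -1.80 to -0.29, and 5 were WT-restricted. The most negative was an intronic region 2367 bp from a *Gata4* TSS with 59 and 87 reads in WT against 15 and 30 in K20R. The WT-restricted *Gata4* intron member printed above lies 19251 bp from the TSS. Around *Otx2*, 7 of 11 members were common and all 7 were lower, from -1.65 to -0.47. Around *Bmp4*, 4 of 7 were common and all 4 lower, from -0.94 to -0.60, and 2 were WT-restricted. Around *Fzd3*, 3 of 4 were common and lower, the promoter of its neighbour *Fbxo16* among them. Around *Apex1*, 6 of 7 members were common and 3 of them lower, with differences from -0.75 to 0.14, and the rest overlapped.

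The strongest common members outside promoters were clearly present in both genotypes. The first, chr14:65343064-65344348, 14995 bp from the TSS of *Zfp395*, had 146 and 192 reads in WT against 73 and 113 in K20R, a difference of -0.93, with folds of 10.3 and 9.60 in WT against 10.1 and 10.3 in K20R. Its fold over background was thus nearly the same while its height was not. The next were a *Chd8* intron region (85 and 160 against 58 and 86, -0.77), a region 14910 bp from *Lrp10* (80 and 133 against 55 and 78, -0.70), a region 51949 bp from *Extl3* (89 and 130 against 50 and 91, -0.72) and a region 1659 bp from *Rnase4* (115 and 167 against 76 and 108, -0.66).

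The strongest WT-restricted members were the region near *Cdkn3* printed above, 98425 bp from that gene's TSS, a *Scara3* intron region (58 and 97 reads in WT), a region in an intron 112847 bp from the TSS of the kinesin gene *Kif13b* (50 and 70), a region 49292 bp from *Shisa2* (40 and 64) and a region 23925 bp from *Tmem260* (32 and 50). The *Scara3* gene thus held both a promoter with the largest positive fold difference and, 2702 bp from its TSS, a WT-restricted region. The K20R-restricted members were weak, with summit pileups of 10 to 26 reads. The strongest 5 lay 4550 bp from *Gzme*, 27329 bp from *Zfhx2*, 32692 bp from *Ngdn*, 4404 bp from *Nfatc4* and 1297 bp from *Tdh*.

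The 13 common members with a positive difference were few and mostly weak. The *Myh6* intron member, chr14:54956481-54957277, had the largest, 0.98 in pileup and 0.87 in fold, and its neighbours did not share it, since the regions around it were lower at *Efs* (87 and 130 against 47 and 71, -0.92) and *Ngdn* (97 and 155 against 59 and 84, -0.84). Next came regions near *Lgals3* (8 and 13 against 14 and 16, 0.51), in a *Samd4* intron (17 and 25 against 21 and 39, 0.43) and in a *Tdh* intron (27 and 35 against 32 and 57, 0.43).

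Sequence around the summits was compared between sets of regions as a description. The CTCF consensus was found within 100 bp of the strongest summit, on either strand, in 53 members (6.78%), beside 6.08% of regions on the rest of chromosome 14 and 5.97% of all regions. Among WT-restricted members 12 of 165 (7.27%) held it, beside 6 of 233 (2.58%) elsewhere on the chromosome and 2.58% of all WT-restricted regions. The GATA motif AGATAA was found in 16 WT-restricted members (9.70%), beside 42 (18.0%) on the rest of the chromosome and 14.5% of all WT-restricted regions. The T-box motif TCACACCT was found in 1 (0.61%), beside 8 (3.43%) and 2.89%. WT-restricted regions of the stretch thus had more CTCF consensus matches and fewer GATA and T-box matches than those elsewhere, in small numbers.

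Common members outside promoters with the CTCF consensus numbered 18, and 16 of them were lower in both K20R libraries, with a median pileup difference of -0.68 (SD 0.36) beside -0.82 (SD 0.55) for the 137 without it. Their median fold difference was -0.33 beside -0.16. At the printed members in the *Chrna2* and *Ptk2b* introns, the K20R backgrounds were 3.19 and 3.01, the lowest levels of those lists. Background could not go lower there, which limits what the fold difference shows, and it was not compared by consensus. On the rest of chromosome 14 the 67 such regions with the consensus had a median pileup difference of 0.14, and 8 of them were lower. Members with and without the consensus thus lay within the spread of each other, and both lay below those outside the stretch. The median GC content within 100 bp of the summit was 63.7% for promoter members and 51.7% for intronic members, beside 65.9% and 50.7% on the rest of the chromosome.

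Several gene clusters of the stretch had almost no peaks. The 38 olfactory receptor genes had 1 member within 1000 bp, the CTCF member near *Olfr750*, with a difference of -0.78, and the 6 pheromone receptor genes had none. Within 1000 bp of the 15 ribonuclease A genes there were 3 members, of the 14 granzyme and mast cell protease genes 2, and of the 5 beta-defensin genes 2. The 200 gene segments of the T cell receptor alpha and delta locus, which rearrange in T cells, had 8 members within 1000 bp, of which none was common and 3 were WT-restricted.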

How the data were processed

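ATAC-seq was measured in 4 libraries, 2 WT and 2 CTCF-K20R, grouped by the sample titles. The authors trimmed reads with Trim Galore, aligned them to mm10 with Bowtie2, removed reads of low mapping quality, duplicates and blacklisted regions, and called peaks with MACS2. The deposited lists, 1 per library, hold for each peak a score (10 times −log10 p, as a whole number), the fold of the summit over local background, and −log10 p and −log10 q values. Read totals are not in the lists, so depth was not known, and each library was centred on its own median over common regions.

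Members and gene lists were chosen with earlier results of these data known. Peaks were merged at 1 bp of overlap, in python 3.11.15 with pandas 2.3.3. Regions were annotated by GENCODE vM21, promoters within 1000 bp of a TSS. The fold equals (pileup + 1)/(background + 1) and the p is a Poisson tail, and solving both (scipy 1.17.1) gave whole pileups, within 0.05 of a read, for 100% of peaks. Percentiles are ranks by −log10 p within a list. No peak lay past a chromosome end of the reference genome. Named genes were those of the lists with a promoter peak, those nearest each end, the 5 promoters most negative and most positive in pileup difference, and the 5 strongest distal, WT-restricted and K20R-restricted members. The design took fold as the first measure. With 2 libraries a genotype and members chosen on this contrast, no test was made.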

Additional observations from a re-analysis of the deposited data

How the results depend on the processing

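The fold difference of common members depended on the measure. Its median of -0.11 was -0.78 by −log10 p and -0.81 by summit pileup, -0.18 when centred on all peaks of a list, -0.073 where −log10 q reached 10 in every list, and -0.18 outside promoters. With 1 library left out it ran from -0.20 (without K20R replicate 1) to -0.039 (without WT replicate 1), and was -0.19 without WT replicate 2 and -0.049 without K20R replicate 2. The share of members lower in both K20R libraries, 36.1% by fold, was 78.6% by −log10 p and 89.6% by pileup, 40.5% to 61.4% with 1 library left out (61.4% without WT replicate 2 and 59.2% without K20R replicate 1) and 48.6% when same-numbered libraries were compared as pairs (replicate block). The median was negative in every one of these. Centring on the rest of chromosome 14 and merging at 100 bp moved it by less than the spread between replicates.

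The percentile difference of -15.3 points was -16.0 among common regions only, -5.73 by fold, -13.7 where −log10 q reached 10 in every list, and between -16.3 and -15.2 with 1 library left out. The 165 WT-restricted members became 106 with only peaks of −log10 q 5 or more, 61 at 10, 119 with lists cut to equal length by −log10 p, 92 where no number was missing, and 182 to 270 with 1 library left out (270 without WT replicate 1). The 6 K20R-restricted members became 1 at either limit, 3 where no number was missing, and 8 to 20 with 1 library left out (20 without K20R replicate 1, and 10 without WT replicate 2 or K20R replicate 2).

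For summit pileup the same alternatives, chosen after seeing the data, gave medians from -0.97 to -0.76 and shares lower from 83.2% to 95.8%. With 2 libraries a genotype, no spread between clones was measured, and weak peaks near the limit of calling rest on few reads.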
